A study of Mus musculus with 474 samples.

Results

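Collagens are secreted or membrane-bound proteins whose chains wind into triple helices. Fibrillar collagens form the tensile fibers of tendon and of the connective tissue sheaths in muscle, type IV collagens form the mesh of the basement membrane around each muscle fiber and capillary, and type VI collagens form beaded filaments that join the basement membrane to the matrix around it. Fibril-associated, network, transmembrane and multiplexin collagens decorate fibrils, anchor epithelia and nerves, or span cell membranes. In muscle, most collagen is made by fibroblast-like cells between the fibers, so its RNA in a whole-muscle sample reflects several cell types.

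The collagen genes were taken as all rows of the gene table whose symbol is Col, a type number, the letter a and a chain number. This rule used names alone and found 44 of 20612 genes. The samples were skeletal muscle RNA-seq libraries, each from 1 Diversity Outbred mouse (an outbred stock bred from several inbred founder strains, in which every animal has its own genotype). The animals were females and males in near equal numbers, all fed the same high-fat, high-sugar diet and all harvested as adults, with no other treatment, no mutant allele and no animals on another diet. The sample titles split them into 5 outbreeding generations of 93 to 99 mice. For females these held 48 (generation 17), 45 (18), 49 (19), 46 (21) and 47 (23) libraries, and for males 46, 48, 50, 47 and 48. The gene table therefore allows comparisons between the sexes, between the generations and among the animals.

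Libraries held 35.9 to 165.7 M counts (M, 1000000 counts), with a median of 79.3 M. Markers of muscle fibers, such as Acta1 and Ckm, summed to between 86618 and 182090 CPM in the libraries, where CPM is a gene's count per 1000000 counts of a library total adjusted by edgeR's TMM method. In 5 libraries (3 labelled female and 2 male) the sex-linked RNA went against the label. They stayed in under their label, and without them 31 in place of 30 collagen genes differed between the sexes. A further 16 libraries stood apart for RNA of skin or cartilage, described with Col17a1 and Col2a1. Without those 16, the count was 30. In whole muscle, fewer cells of a type and less RNA per cell cannot be told apart.

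All collagen genes together took 0.0699% to 0.360% of a library's counts, with a median of 0.163%. Counts were read for 35 of the 44 genes in every library, whereas Col6a4 was at 0 counts in 82 female and 93 male libraries, and Col10a1 (the collagen of hypertrophic cartilage) in 60 and 83. A filter on low counts passed 43 genes, all but Col10a1, whose exons also overlap those of Nt5dc1. Exons of Col4a1 and Col4a2 overlap each other, and those of Col20a1, Col4a3 and Col5a1 overlap another listed gene, so that their counts could hold reads of the partner.

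Levels per length (mean CPM per kb of annotated exon sequence) spanned 2327-fold. Col1a1 was at 33.8 CPM per kb and its partner Col1a2, with which it forms type I collagen of tendon and fascia, at 22.6. Col4a1 and Col4a2, the chains of the basement membrane mesh in nearly all tissues, were at 27.1 and 21.8. Col3a1, the homotrimeric fibrillar collagen of pliable tissue, was at 22.04. These 5 genes were followed by the type VI chains Col6a1 (17.8), Col6a2 (9.08) and Col6a3 (6.597), by the multiplexin Col15a1 (7.34), which sits on the outer face of the muscle basement membrane, and by the type V chains Col5a3 (7.02), Col5a1 (5.35) and Col5a2 (3.88), which set fibril diameter. In all, 19 genes were at or above 1 CPM per kb and 8 were below 0.1. The lowest were the type VI chain Col6a4 at 0.0148 and Col10a1 at 0.0145.

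**Figure D1:**
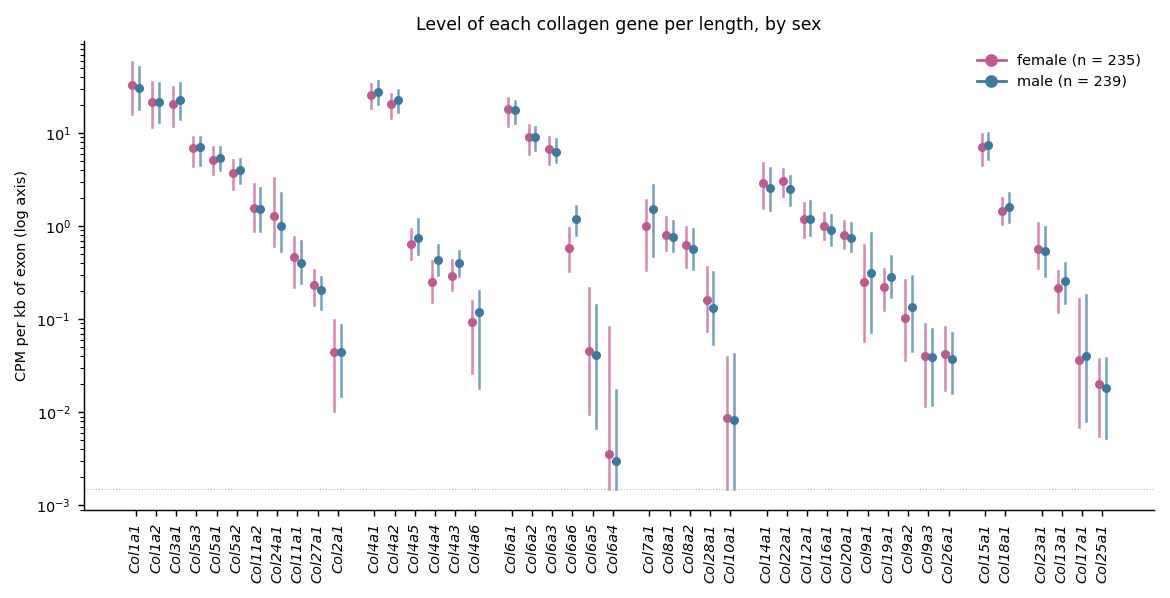
Level of each collagen gene per length, in CPM per kb of exon on a log axis, with the median of the libraries as a point and the 5th to 95th percentile as a bar, grouped by structural class. Col1a1 (mean 33.8 CPM per kb) is at the top of the fibrillar class, and Col6a4 and Col10a1 are the lowest.

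Chains of 1 trimer were compared by their ratio in each library. Per length, the median ratio of Col1a1 to Col1a2 was 1.48, with 1.23 and 1.73 at the 5th and 95th percentiles. For Col4a1 to Col4a2 the ratio was 1.24 (1.11 to 1.39), and for Col6a1 to Col6a2 it was 1.962 (1.72 to 2.23). The ratio of Col4a3 to Col4a4 was wider, at 1.021 (0.684 to 1.63), with medians of 1.15 in females and 0.937 in males. Col4a5 was at 6.85 times the level of Col4a6 (4.06 to 24.2). These are levels of RNA and not of protein.

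The first comparison asked which collagen genes differ between males and females, with generation held fixed. Of the 43 genes tested, 30 (69.8%) passed an adjusted p of 0.05 in edgeR's quasi-likelihood test, against 55.0% of the 18823 genes tested. In males 15 were higher (34.9%, against 24.4% of all genes) and 15 were lower (34.9%, against 30.6% of all genes). With the total count alone as the scale, 14 were higher and 17 lower, while over all genes the number higher fell from 4595 of 10362 called to 3330 of 10799. The median log2 difference (male minus female, the sign used throughout) was -0.03 over the collagen genes and -0.01 over all genes, and the median absolute difference was 0.16 against 0.09. Differences of at least 1.5-fold were found for 3 of the genes, Col6a6, Col4a4 and Col6a4, against 5.30% of all genes. For no collagen gene did the ranges of the sexes separate fully. Of the 30 genes, 29 kept their sign in all 5 generations, the exception being Col8a1. In the 5 blocks of consecutive library numbers 26 kept it, the exceptions being Col5a2, Col6a5, Col11a1 and Col23a1. Within single generations, which hold fewer animals, 6 genes passed in every generation and 6 in none.

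By structural class, all 6 type IV chains rose in males. Among the 11 fibrillar genes 2 rose, 4 fell and 5 did not pass, and among the 10 fibril-associated genes 3 rose, 5 fell and 2 did not pass. The fibrillar Col5a1 and the multiplexin Col15a1, both at 0.06, were just short of the threshold (adjusted p = 0.0507 and 0.0504), and with the library block as covariate both passed as higher in males. Of the 6 type VI genes 1 rose and 2 fell. Of the 4 network and anchoring genes tested 1 rose and 3 fell, of the 4 transmembrane genes 1 rose and 1 fell, and of the 2 multiplexins 1 rose.

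**Figure D2:**
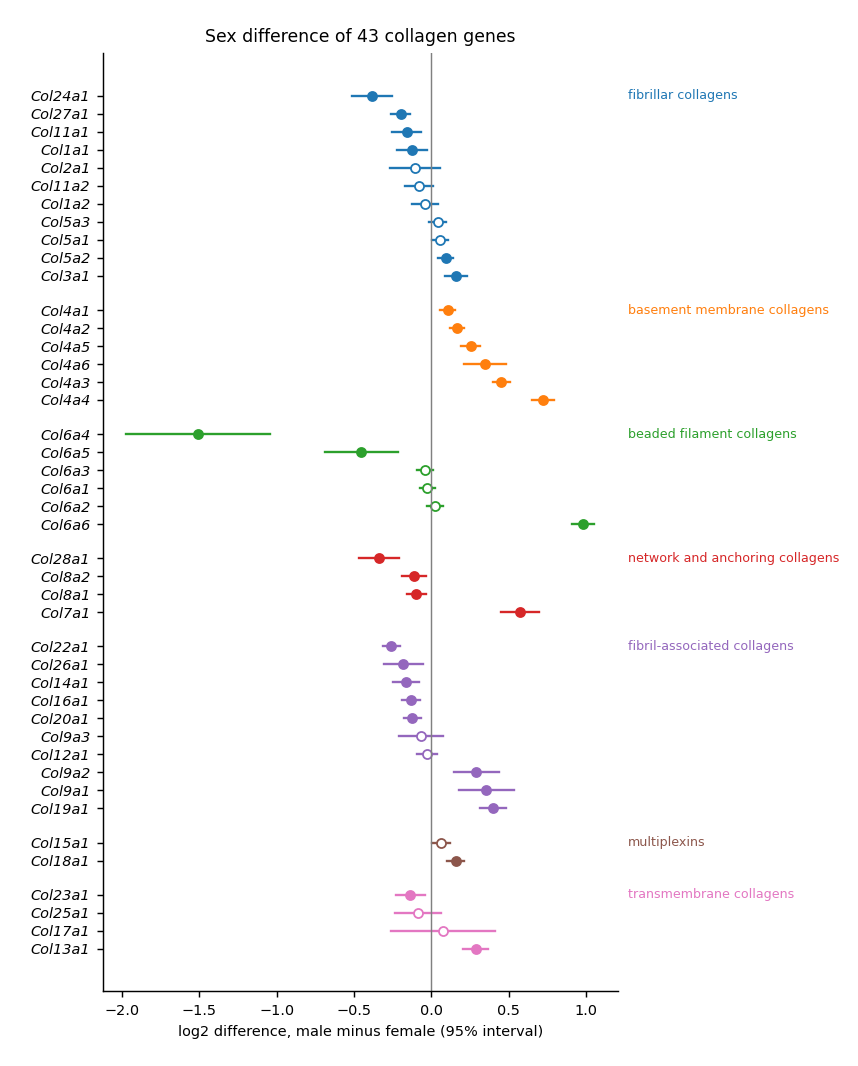
Difference between the sexes of the 43 tested collagen genes on the log2 scale (male minus female) with 95% intervals, by structural class. Filled points passed an adjusted p of 0.05. All 6 basement membrane genes lie above 0, from 0.10 for Col4a1 to 0.72 for Col4a4. Col6a6 at 0.98 and Col6a4 at -1.51 are the extremes.

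The type VI chain Col6a6 (ENSMUSG00000043719, GRCm38 chr9:105687809-105828160, minus strand), which can take the place of the alpha3 chain beside Col6a1 and Col6a2, had the largest rise in males. Female libraries ran from 1.95 to 11.4 CPM with a median of 5.38, and male libraries from 4.83 to 19.4 with a median of 10.9. All but 2 of the males were above the female median, 103 males were above the highest female, and 88 females were below the lowest male, so the groups overlapped only in part. The log2 difference was 0.98 (SE 0.04, adjusted p = 2.73e-93, edgeR), or 1.97-fold. Within generations it ran from 0.95 to 1.03, and within the 5 blocks of consecutive library numbers from 0.87 to 1.03. Of the main type VI chains, Col6a1 differed by -0.03 (95% interval -0.08 to 0.02), Col6a2 by 0.02 (-0.03 to 0.08) and Col6a3 by -0.04 (-0.09 to 0.01), and none of them passed the test. With the total count alone as the scale Col6a3 passed as lower in males (-0.07, adjusted p = 0.0213). At a given progenitor marker score, described with the marker genes, Col6a1 (0.09), Col6a2 (0.15) and Col6a3 (0.07) each passed as higher in males.

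Both other long type VI chains were low and moved the other way. Col6a5 had a median of 0.430 CPM in females (0 to 10.8) and 0.384 in males (0 to 2.07), with a log2 difference of -0.45 (SE 0.12, adjusted p = 0.000543). The sexes overlapped over nearly the whole range, and on the deposited variance-stabilized scores the call was lost (adjusted p = 0.0715 with limma). Col6a4 ran from 0 to 9.10 CPM in females (median 0.0301) and from 0 to 2.76 in males (median 0.0253). Its medians were nearly equal, and 10 females against 1 male were above 1 CPM. The fitted difference of -1.51 (SE 0.24, adjusted p = 2.66e-09) came to -1.21 without the female with 9.10 CPM and to -0.11 on the variance-stabilized scores, on which it still passed. Within generations it ran from -2.59 to -0.20, the latter in generation 19, where it did not pass. Within blocks of library numbers it ran from -2.35 to -0.18. The value of Col6a4 thus depended on a few high libraries. These 3 genes lie side by side on chromosome 9, all on the minus strand, with 27.9 kb between Col6a6 and Col6a5 and 28.8 kb between Col6a5 and Col6a4.

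The second largest rise was that of Col4a4, whose chain assembles with those of Col4a3 and Col4a5 in the basement membranes of the kidney glomerulus, the lung and the neuromuscular synapse. Female libraries ran from 1.05 to 5.55 CPM (median 2.69) and male libraries from 2.45 to 9.16 (median 4.59). In all but 1 of the males the level was above the female median, while 44 males were above the highest female. The difference was 0.72 (SE 0.04, adjusted p = 3.47e-60), with 0.67 to 0.80 within generations. Col4a3 ran from 1.14 to 5.41 CPM in females (median 2.94) and from 1.997 to 6.57 in males (median 3.99). The sexes overlapped more than for Col4a4, with 94.1% of males above the female median and 13 above the highest female. Its difference was 0.45 (SE 0.03, adjusted p = 1.31e-43), with 0.41 to 0.50 within generations.

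Col4a4 and Col4a3 are transcribed away from each other, and their annotated starts are 71 bases apart. This gap, chr1:82586850-82586920 in GRCm38.p6, is shown on the Col4a4 (minus) strand, as the only sequence that both genes have directly before their start. Of its bases 69.0% are G or C, and it holds none of the motifs searched. These were the GC box GGGCGG, the CCAAT box CCAAT and the TATA box TATAAA, on both strands.
Col4a4: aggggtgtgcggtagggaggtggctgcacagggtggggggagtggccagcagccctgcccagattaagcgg

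The remaining type IV chains rose by less. Col4a5 and Col4a6, which form the smooth muscle and epidermal type IV network and lie head to head on the X chromosome 1.308 kb apart, differed by 0.25 (SE 0.03, adjusted p = 1.41e-13) and 0.35 (SE 0.07, adjusted p = 4.59e-06). Col4a5 had medians of 4.31 CPM in females (2.21 to 8.07) and 5.04 in males (2.57 to 11.5), and Col4a6 of 0.739 (0 to 2.26) and 0.949 (0.0433 to 2.17). The sexes overlapped over most of both ranges. Col4a1 and Col4a2, head to head on chromosome 8 with an overlap of 22 bases, differed by 0.10 (SE 0.02, adjusted p = 3.62e-05) and 0.17 (SE 0.02, adjusted p = 6.70e-12). Col4a1 had medians of 194.2 CPM in females and 207.0 in males, and Col4a2 of 134.9 and 150.4. In each of the 6 type IV genes every generation had the male sign, and the share of counts on Col4a1 and Col4a2 together was 0.0335% ± 0.00634 in females and 0.0359% ± 0.00667 in males (SD over all females and over all males). That share was higher in males in all 5 generations and in all 5 blocks (2-sided permutation test within generations, 100000 resamples, adjusted over 3 comparisons, p = 0.00033). Markers of endothelium and of pericytes and smooth muscle, cells that lie on basement membrane, moved the same way. Of 7 endothelial markers 6 were higher in males, against 24.4% of all genes (summed median 216.4 CPM, 159.9 to 342.97, in females and 232.1, 171.7 to 340.4, in males), and so were 7 of 7 pericyte and smooth muscle markers (462.3, 306.2 to 700.4, and 507.5, 353.1 to 755.6). Their part in the type IV difference was not tested.

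**Figure D3:**
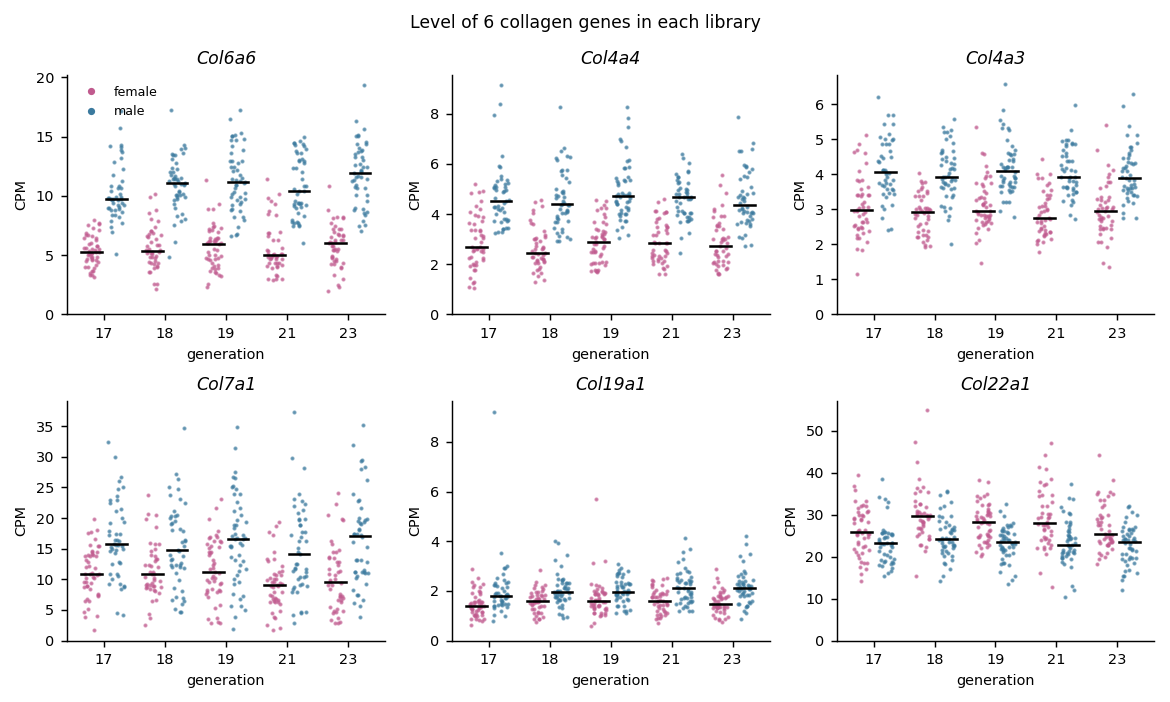
CPM of Col6a6, Col4a4, Col4a3, Col7a1, Col19a1 and Col22a1 in every library, by generation and sex, with the median of each group as a black bar. Col6a6 and Col4a4 are shifted up in the males of each of the 5 generations, Col22a1 is shifted down, and the points of the sexes overlap in every panel.

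Outside type IV and VI, Col7a1, the collagen of the anchoring fibrils that hold the epidermis to the dermis, rose most in males (ENSMUSG00000025650, chr9:108953586-108984875, plus strand). It ran from 1.75 to 24.1 CPM in females (median 10.2) and from 1.959 to 37.4 in males (median 15.7). The sexes overlapped widely, with 188 males above the female median and 29 above the highest female. The difference was 0.58 (SE 0.06, adjusted p = 2.45e-17), with 0.42 to 0.71 within generations. Col19a1, a fibril-associated collagen of basement membrane zones, had medians of 1.53 CPM in females (0.572 to 5.71) and 1.98 in males (0.769 to 9.22) and differed by 0.40 (SE 0.04, adjusted p = 1.38e-17). Here 193 males were above the female median. Col13a1, a transmembrane collagen of the neuromuscular junction, differed by 0.29 (SE 0.04, adjusted p = 5.30e-11) at a median of 0.989 CPM in females and 1.20 CPM in males. Col9a1 and Col9a2, chains of the type IX collagen of cartilage, were higher in males by 0.36 and 0.29 (adjusted p = 0.000331 and 0.000259), at medians of at most 1.59 CPM. Col18a1, the heparan sulfate collagen of vascular and epithelial basement membranes, rose by 0.16 (adjusted p = 4.76e-07).

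Among the fibrillar collagens the 2 genes that rose were Col3a1 by 0.16 (SE 0.04, adjusted p = 7.07e-05) and Col5a2 by 0.09 (SE 0.02, adjusted p = 0.000643, and 0.0516 with the total count alone as the scale). Col3a1 ran from 64.6 to 453.5 CPM in females (median 200.4) and from 121.6 to 459.2 in males (median 223.1), with 163 males above the female median. Col1a1, with 46.8 to 799.5 CPM in females (median 217.3) and 90.7 to 566.97 in males (median 200.8), was lower in males, with a difference of -0.12 (SE 0.05, adjusted p = 0.0265). Its 8 lowest and 3 highest libraries were all female, and the groups overlapped everywhere else. On the variance-stabilized scores the Col1a1 call was lost (adjusted p = 0.221), and at a given progenitor or tendon marker score, described with the marker genes, the difference turned to 0.044 and 0.045 and did not pass. Col1a2 differed by -0.04 (95% interval -0.12 to 0.05) and did not pass, but at either marker score it passed as higher in males (up to 0.12). The ratio of Col1a1 to Col3a1 per length had a median of 1.58 in females and 1.33 in males. Summed, Col1a1, Col1a2 and Col3a1 took 0.0730% ± 0.0263 of counts in females and 0.0712% ± 0.0213 in males (adjusted permutation p = 0.404), and Col6a1, Col6a2 and Col6a3 took 0.0237% ± 0.00517 and 0.0230% ± 0.00397 (adjusted permutation p = 0.123). Neither share passed, and without the 16 skin or cartilage marker libraries the latter was at an adjusted p of 0.0566 (0.0377 unadjusted).

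Other fibrillar genes that fell in males were the minor chains. Col24a1 had medians of 9.92 CPM in females (3.02 to 43.7) and 7.72 in males (2.42 to 56.2), and the single highest library was a male although 70 males were above the female median. Its difference was -0.39 (SE 0.07, adjusted p = 5.34e-08). Col27a1, a fibrillar collagen best known from cartilage, differed by -0.20 (adjusted p = 3.64e-09), with 14 females above the highest male. Col11a1, which nucleates fibrils with type II and type V collagen, differed by -0.16 (adjusted p = 0.00204). The Col11a1 call was lost at a given progenitor or tendon marker score, described with the marker genes (-0.07 and 0.011).

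Col22a1, the fibril-associated collagen of the myotendinous junction, where muscle fibers meet tendon, had the largest fall among genes above 1 CPM per kb apart from Col24a1. It ran from 12.6 to 54.8 CPM in females (median 27.9) and from 10.4 to 38.5 in males (median 23.3). Of the males 35 were above the female median, and 10 females were above the highest male. The difference was -0.26 (SE 0.03, adjusted p = 4.81e-18), passing in each generation and each block. Col14a1, a collagen on the surface of type I fibrils, differed by -0.16 (adjusted p = 0.000347), Col16a1 by -0.13 (adjusted p = 3.32e-05) and Col20a1 by -0.12 (adjusted p = 7.25e-05). Col26a1 differed by -0.18 (adjusted p = 0.0105) at a level under 0.1 CPM per kb. At a given progenitor marker score, described with the marker genes, Col14a1, Col16a1 and Col26a1 did not pass (0.03, -0.04 and -0.14). Col12a1, which also coats type I fibrils, differed by -0.03 (95% interval -0.09 to 0.04) and did not pass, although at a given tendon marker score it passed as higher in males (0.07, adjusted p = 0.00553).

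The other falls were smaller or at low levels. Col28a1, known from the basement membrane around Schwann cells, fell by 0.34 on the log2 scale (adjusted p = 2.27e-06) at medians of 0.795 and 0.643 CPM. Of 6 Schwann cell markers 3 fell and none rose (30.6% of all genes fell), with summed medians of 86.1 CPM (35.2 to 209.3) in females and 79.4 (37.7 to 180.0) in males, and their part in the Col28a1 difference was not tested. Col8a1 and Col8a2, short-chain collagens of vessel walls and the cornea, fell by 0.10 (adjusted p = 0.00618) and 0.11 (adjusted p = 0.00958). At a given progenitor marker score (described with the marker genes) they were at -0.03 and -0.08 and neither passed (adjusted p = 0.529 and 0.111), and at a given tendon marker score they were at -0.05 and -0.0033 (adjusted p = 0.120 and 0.935). The transmembrane Col23a1 fell by 0.14 (adjusted p = 0.0104), but within blocks it ran from -0.40 to 0.12, and it passed in no single generation. Col25a1, a transmembrane collagen needed for motor innervation, differed by -0.09 (95% interval -0.23 to 0.06) and did not pass.

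Col6a6 carried the largest rise and Col24a1 the largest fall among fibrillar genes, and Col4a5 is the most abundant type IV gene on the X chromosome. The stretches directly before their annotated starts that lie in RefSeq promoter windows (GRCm38.p6) are shown with matches to the searched motifs in capitals. That of Col6a6, chr9:105828161-105828335 on the minus strand, holds 2 GC boxes, 1 on each strand. That of Col4a5, chrX:141475169-141475384 on the plus strand, holds 1 CCAAT box. That of Col24a1, chr3:145292222-145292471 on the plus strand, holds no match.
Col6a6: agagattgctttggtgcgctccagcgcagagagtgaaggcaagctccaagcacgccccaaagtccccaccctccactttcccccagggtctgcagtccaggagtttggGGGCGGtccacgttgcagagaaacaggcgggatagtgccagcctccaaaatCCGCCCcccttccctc
Col4a5: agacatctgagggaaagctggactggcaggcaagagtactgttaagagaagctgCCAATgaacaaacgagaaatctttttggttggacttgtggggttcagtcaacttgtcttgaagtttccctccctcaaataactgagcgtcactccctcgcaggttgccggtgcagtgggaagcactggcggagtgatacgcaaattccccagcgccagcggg
Col24a1: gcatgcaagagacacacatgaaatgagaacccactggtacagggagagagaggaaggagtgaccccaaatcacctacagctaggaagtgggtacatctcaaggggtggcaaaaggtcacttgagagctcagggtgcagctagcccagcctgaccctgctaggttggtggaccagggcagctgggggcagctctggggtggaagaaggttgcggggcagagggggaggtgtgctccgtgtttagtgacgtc

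RefSeq windows were matched for 35 of the 44 collagen genes. In the 250 bases before the start, the GC box was in 21 of the 35 (60.0%) and in 32.7% of 32851 windows of all genes. The CCAAT box was in 12 (34.3%, against 33.8%) and the TATA box in 5 (14.3%, against 12.4%). A match describes letters and is not a binding site.

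Markers of the cells that make most collagen also differed between the sexes. Of 10 markers of fibro-adipogenic progenitors (the collagen-producing mesenchymal cells of muscle) 9 were lower in males, against 30.6% of all genes. Their summed medians were 1053 CPM (700.7 to 1443) in females and 986 (648.5 to 1430) in males. Of 9 tendon and myotendinous markers 6 were lower and 1 higher, against 30.6% and 24.4% of all genes. Their summed medians were 372.9 CPM (110 to 735) in females and 322 (108 to 582.1) in males. When the mean progenitor score of each library was added to the fit, 22 collagen genes were called higher in males and 7 lower, with a median log2 difference of 0.07, against 23.1% and 26.4% of all genes. With the tendon score, 21 were higher and 10 lower, against 24.6% and 30.9% of all genes. The calls of 5 genes (Col1a1, Col8a1, Col8a2, Col11a1 and Col26a1) were lost with either score, and those of 3 (Col6a5, Col14a1 and Col16a1) with the progenitor score alone. All 6 type IV genes remained higher in males in both fits. At a given progenitor score, 7 genes passed as higher in males that had not passed before, namely Col1a2 (0.12), Col5a1 (0.20), Col5a3 (0.13), Col6a1 (0.09), Col6a2 (0.15), Col6a3 (0.07) and Col15a1 (0.15), and Col1a1 was at 0.04 without passing (adjusted p = 0.496). With the tendon score 6 such genes passed, namely Col1a2 (0.11), Col5a1 (0.09), Col5a3 (0.07), Col6a2 (0.07), Col12a1 (0.07) and Col15a1 (0.11), and Col1a1 again did not (adjusted p = 0.300). A fit at a given score compares animals of like marker level, and the part of cell composition in these differences was not tested further. Of the other marker lists, adipocyte genes were 5 lower and 1 higher of 6, against 30.6% and 24.4% of all genes. Their median log2 difference was -0.54, and 2 of the 6 differed by at least 1.5-fold (5.30% of all genes). Summed, they had medians of 97.6 CPM in females and 66.9 in males, with overlapping ranges. The part of adipocyte RNA in the collagen differences was not tested. Against the same shares of all genes, muscle fiber genes were 4 higher and 1 lower of 7. Cartilage genes were 1 higher and 2 lower of 5 tested, bone genes 1 higher of 2, and none of 6 macrophage or 3 skin genes passed.

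The second comparison asked whether collagen genes differ between the outbreeding generations, as read from the titles. The methods of the study do not name generations 17 and 23, so this reading of the titles is open to doubt. Generation differences passed for 4 of 43 genes (7.56% of all genes passed), namely Col8a2, Col5a2, Col2a1 and Col3a1. Col8a2 had mean levels of 2.38 ± 0.728, 2.96 ± 0.928, 2.84 ± 0.778, 2.77 ± 0.769 and 2.79 ± 0.815 CPM in generations 17, 18, 19, 21 and 23 (SD, n = 94, 93, 99, 93 and 95). Generation 17 was the lowest and generation 18 the highest, with a log2 range of 0.32 (adjusted p = 0.000604). Col5a2 was at 35.3 CPM in generation 17 and 39.7 in generation 23 (log2 range 0.17, adjusted p = 0.00945), and Col3a1 at 201.1 and 235.2 (0.22, adjusted p = 0.0365). Generation 17 was the lowest for 25 of the 43 genes (58.1%, against 26.1% of all genes). The count of 4 was sensitive to the fit, and without the 16 skin or cartilage marker libraries 13 genes passed. Leaving out 1 library at a time gave 8 genes (without DO084, male, generation 17), 10 (without DO191, female, generation 18) and 2 (without DO472, female, generation 23), and Col8a2 passed in each of these. The generation calls of Col2a1 and Col3a1 were both lost without DO472 and with limma, that of Col3a1 also with either marker score as covariate, and that of Col5a2 with the progenitor score.

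The third comparison asked whether the difference between the sexes varied with generation. No collagen gene passed this interaction test (0 of 43, edgeR, with 2 at an unadjusted p below 0.05), against 0.531% of all genes. With limma on the variance-stabilized scores 0 of the 18823 genes passed, and 2 collagen genes were at an unadjusted p below 0.05. The smallest adjusted p of a collagen gene in edgeR was that of Col17a1, 0.0551, whose difference ran from -1.04 to 1.33 within generations.

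Col17a1 and Col2a1 were highest in a few libraries that also held marker RNA of other tissues. Col17a1, a transmembrane collagen of the hemidesmosomes of skin, ran from 0 to 18.4 CPM. In 15 libraries (6 female and 9 male) the keratin gene Krt10, a marker of upper epidermis, was above 10 CPM, from 15.3 to 91.7, against 0.497 to 8.28 in all other libraries. Those 15 held 2.59 to 18.4 CPM of Col17a1 (median 6.49) and the others held 0 to 1.97 (median 0.222), so the ranges did not overlap. Col7a1, also a skin collagen, had medians of 16.5 and 12.3 CPM in these and the other libraries, with overlapping ranges (2.56 to 29.9 and 1.75 to 37.4), and this difference was not tested. Between the sexes Col17a1 differed by 0.08 (95% interval -0.26 to 0.41, not called), and by -0.16 without DO084, the library with the highest level.

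Library DO472 held 9.47 CPM of Col2a1, the main fibrillar chain of cartilage, against 1.60 in the next highest library. It also held 3.72 CPM of the cartilage proteoglycan gene Acan (0.274 in the next highest), 2.41 CPM of Col10a1 (median of all libraries 0.0266) and 0.985 CPM of Hapln1 (median 0.0815). Medians of Col2a1 were 0.410 CPM in females and 0.407 in males, and its difference between the sexes of -0.11 (95% interval -0.27 to 0.05) did not pass.

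**Figure D4:**
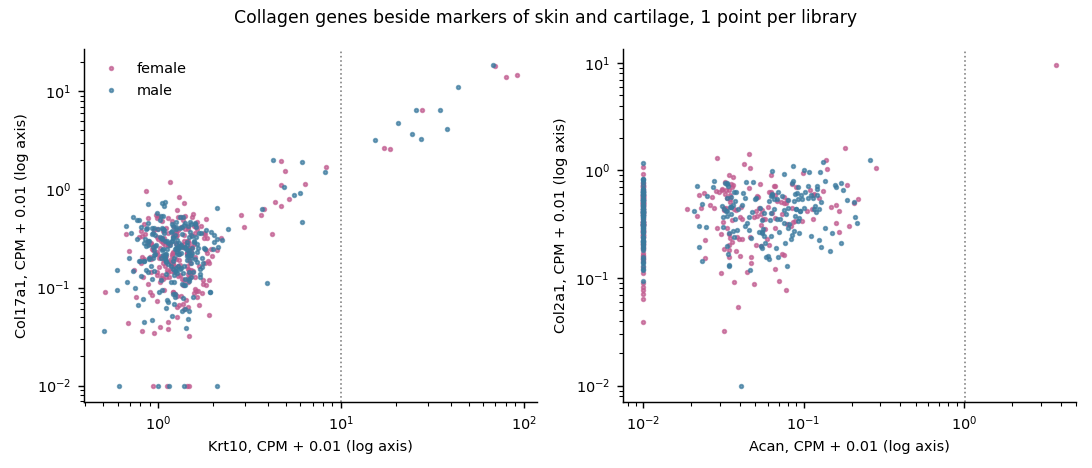
Each library's CPM (plus 0.01, log axes) of Col17a1 against Krt10 and of Col2a1 against Acan, with dotted lines at 10 CPM of Krt10 and 1 CPM of Acan. The 15 libraries right of the first line hold at least 2.59 CPM of Col17a1, more than any other library, and DO472 alone lies right of the other.

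Collagen RNA varied more among animals than that of most genes. The median SD of the variance-stabilized scores after removal of sex and generation means was 0.282 over the 43 genes and 0.204 over all genes tested, and 40 of the 43 were above the latter. Col7a1 had the largest SD (0.611, at the 96.6th percentile of genes), followed by Col24a1 (0.591), Col1a1 (0.551), Col17a1 (0.527) and Col9a1 (0.510). The Col17a1 value includes the 15 libraries with Krt10 above 10 CPM, at 2.59 to 18.4 CPM of Col17a1 against 0 to 1.97 in the others. Its SD without those 15 was not taken. In CPM, the 95th percentile of Col7a1 was 6.16 times its 5th, that of Col1a1 3.28 times and that of Col4a1 1.80 times. In 7 of the 43 genes the difference in spread between the sexes passed (limma on absolute deviations from group medians), against 5.55% of all genes. These were Col1a1 (-0.11), Col1a2 (-0.10), Col6a2 (-0.07), Col11a1 (-0.07), Col6a1 (-0.06), Col6a3 (-0.05) and Col4a4 (-0.05), all with smaller deviations in males. Among all genes called for spread, 715 of 1045 were also less spread in males. On log2 CPM 6 collagen genes passed.

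The levels of chains that assemble together, and of other pairs, were also compared from animal to animal. The 30 pairs were listed by biology as chains of 1 trimer, chains of 1 fibril or neighboring genes, and further pairs not listed as assembling together. Pearson's r and Spearman's rho were computed over all libraries after removal of sex and generation means. Of the 30, 27 passed on r (permutation test, 100000 resamples, 2-sided, adjusted over the 30 pairs). Pairs not listed as assembling also passed, such as Col4a1 and Col15a1 (r = 0.54) and Col1a1 and Col22a1 (r = 0.37). A pass therefore does not mark chains that assemble together, and no share over other gene pairs was taken. The smallest p that the resamples allow is 1e-05. It was reached by the 6 pairs that follow, but also by looser pairs, such as Col4a4 and Col4a5 (r = 0.23). Col1a1 and Col1a2 had r = 0.97 and rho = 0.97, Col6a1 and Col6a2 had r = 0.93 and rho = 0.91, and Col4a1 and Col4a2 had r = 0.92 and rho = 0.93. Col3a1 and Col5a2, neighbors on chromosome 1 that are 24.6 kb apart and transcribed toward each other, had r = 0.86 and rho = 0.85. Type I and type VI collagen also moved together, with r = 0.77 and rho = 0.71 for Col1a1 and Col6a1. For Col4a3 and Col4a4, with the shared start region shown earlier, r was 0.55 and rho 0.55. Leaving out the 2 libraries farthest from the median of the first gene gave r of 0.97, 0.93, 0.92, 0.86, 0.75 and 0.54 for these pairs, and within the 5 blocks of library numbers the lowest values were 0.96, 0.91, 0.85, 0.84, 0.74 and 0.51.

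Other partners were looser. Col6a1 and Col6a6 had r = 0.49 and rho = 0.46, Col4a5 and Col4a6 r = 0.40 and rho = 0.40, and Col4a4 and Col4a5 r = 0.23 and rho = 0.21 (permutation p at or under 3.00e-05 for each). Col9a2 and Col9a3 (r = 0.09, rho = 0.08, adjusted p = 0.0624) did not pass. Neither did Col13a1 and Col25a1 (r = -0.07, rho = -0.05, adjusted p = 0.147) nor Col19a1 and Col25a1 (r = 0.07, rho = 0.06, adjusted p = 0.147), which were not listed as assembling together. After removal of the progenitor score, the r of Col1a1 and Col14a1 went from 0.20 to 0.0030, while that of Col1a1 and Col1a2 stayed at 0.97.

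Over all 903 pairs of collagen genes the median r was 0.11, and 85 pairs were above 0.5. Col11a1 was nearest to Col1a2 (r = 0.84), Col12a1 to Col11a1 (0.80) and Col15a1 to Col6a2 (0.75), whereas Col7a1, Col9a3, Col17a1, Col19a1, Col20a1, Col23a1, Col25a1 and Col28a1 had no partner above 0.2. These values describe libraries that share depth and processing, and no test was run on them.

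**Figure D5:**
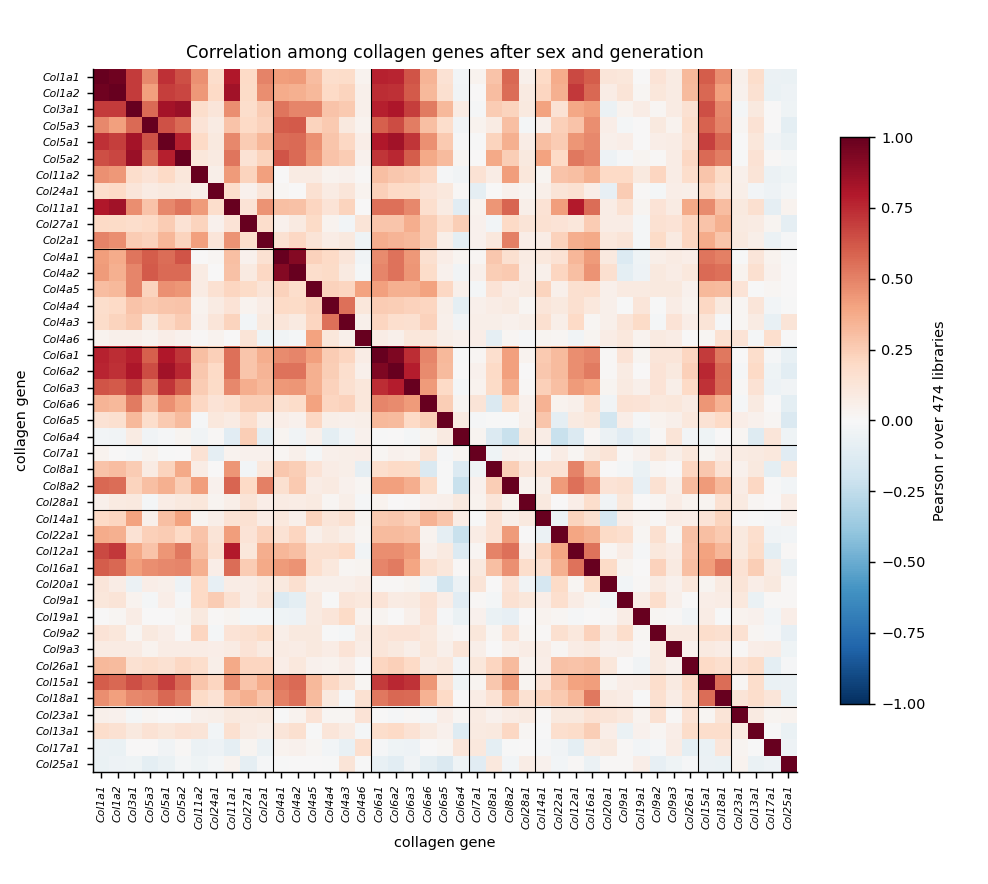
Heatmap of Pearson's r between the 43 collagen genes over all libraries, on variance-stabilized scores after removal of sex and generation means, ordered by structural class. Values among Col1a1, Col1a2, Col3a1, the type V genes and Col6a1, Col6a2 and Col6a3 are high, with 0.97 for Col1a1 and Col1a2, and no value of the 4 transmembrane genes is above 0.25.

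Genes that modify, cut, bind or sense collagen were counted for the same difference between the sexes. Of 21 genes for modification and folding 5 were higher in males and 12 lower. Plod2, which hydroxylates lysines of the collagen telopeptides, had mean levels of 7.59 CPM in females and 5.13 in males (-0.57, SE 0.06, adjusted p = 5.04e-19). P4ha3, a prolyl 4-hydroxylase subunit, was at 0.162 and 0.0897 CPM (-0.84, SE 0.12, adjusted p = 8.58e-11), and P3h2, a prolyl 3-hydroxylase, differed by -0.22. Creb3l1, a transcription factor of matrix-secreting cells, was at 3.97 and 5.54 CPM (0.48, SE 0.03, adjusted p = 1.62e-44).

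Of 13 genes for propeptide removal and cross-linking 3 were higher and 6 lower. Those with the largest differences were the procollagen proteinase Tll1 (-0.26), the proteinase enhancer Pcolce2 (-0.16), the cross-linking enzyme Lox (-0.16) and the N-proteinase Adamts3 (-0.14). Of 14 tested genes for breakdown and its inhibitors 7 were higher and 4 lower, with the membrane protease Mmp16 at -0.45 and the inhibitors Timp1 at -0.40, Timp3 at 0.29 (adjusted p = 1.03e-22) and Timp4 at 0.23 (adjusted p = 2.53e-14). Of 11 collagen receptors 3 were higher and 4 lower, and the latter were Itga10 (-0.23), Itga2 (-0.23), Antxr1 (-0.17) and Itga11 (-0.16).

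Of 20 collagen-binding matrix proteins 10 were higher and 9 lower. Postn (periostin) differed by -0.41, the fibril-binding proteoglycans Lum and Fmod by -0.31 and -0.25, and the basement membrane linker Nid2 by 0.22 (adjusted p = 3.55e-10). Of 15 genes of TGF-beta signaling, a main inducer of fibrillar collagen, 7 were higher and 2 lower. The latent TGF-beta binding proteins went apart, with Ltbp1 at 0.26 (adjusted p = 5.25e-28) and Ltbp2 at -0.37 (adjusted p = 0.00285), while the repressor Skil was at 0.15. These lists share genes with the marker lists (Lum and Fmod), and over all genes 24.4% were higher and 30.6% lower.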

How the data were processed

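Poly-A RNA of whole skeletal muscle (gastrocnemius, per the methods) was sequenced by the authors. They deposited expected counts per gene, estimated by EMASE in the GBRS package against a transcriptome of the founder strains, and a table of DESeq2 variance-stabilized scores. Positions in Mb were deposited beside them. GRCm38 and DESeq2 are named in the submitters' processing notes, and strand handling and tool versions are not given in the sources used here. Of the deposited expected counts 68.6% were whole numbers, and all were rounded. The column names of 4 libraries stood out of order between the tables, and the names were taken as right.

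Sex and generation were read from the sample titles. That the title's number is the generation is an assumption, and the methods name generations 18, 19 and 21 only. The breeding wave used in the study is not in the labels. Library numbers fall into 5 runs of 91 to 96, which may be plates, although the labels do not say so. Counts were fitted with edgeR 4.0.16 in R 4.3.3 (TMM, filterByExpr with a minimum count of 10, quasi-likelihood F-test on sex plus generation, with the interaction in a further fit), and Benjamini-Hochberg adjustment ran over all genes tested at 0.05. The model reads spread between animals, 1 library each, and the depth of each library (at least 35.9 M counts) limits mainly the genes under 1 CPM. Variance-stabilized scores were fitted with limma 3.58.1 and used for correlations (scipy 1.17.1). The code was tested on simulated data. Exon lengths came from GENCODE M21, whose gene positions equalled the deposited ones for all 44 genes, and promoter windows came from RefSeq.

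The collagen genes and all other lists were chosen with earlier results of these data known. Named genes are all collagen genes, up to 4 called genes with the largest difference from each other list, and the genes most like the type I, III and IV chains. One gene that this rule names is not reported here. Alternatives were RLE scaling, total count alone, no filter, a stricter filter, limma, DESeq2 1.42.0, the library run as covariate, marker scores as covariates and leaving out the 5 libraries against their label. Leaving out libraries with skin or cartilage RNA, and each library with over 10 times the median of a collagen gene, was added after seeing the data.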

Additional observations from a re-analysis of the deposited data

How the results depend on the processing

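No paired analysis was possible because each animal gave 1 library and the labels give no replicate numbers shared between groups. Of the 30 collagen genes called between the sexes, 21 were called in the same direction in every alternative run, and the count of calls ranged from 24 (stricter filter, 33 genes tested) to 32. With the progenitor score as covariate 7 genes in place of 15 were lower in males. Signs turned under that score for Col1a1 (0.044), Col1a2 (0.12), Col6a1 (0.089), Col6a3 (0.069), Col12a1 (0.067), Col14a1 (0.032) and Col17a1 (-0.064). With the tendon score they turned for Col1a1 (0.045), Col1a2 (0.11), Col2a1 (0.045), Col6a1 (0.023), Col6a3 (0.000574), Col11a1 (0.011), Col11a2 (0.0093) and Col12a1 (0.068). Col2a1 turned to 0.0043 with limma, Col6a2 to -0.0098 with the total count alone and Col17a1 to -0.16 without DO084. The count of 4 genes differing between generations went to 13 with the total count alone, 8 with the stricter filter, 9 with the library run as covariate, 8 with DESeq2, 2 with limma, 13 without the skin and cartilage marker libraries, 8 without DO084, 10 without DO191 and 2 without DO472. The interaction count went from 0 to 1 (Col17a1) with the total count alone. The causes were not tested. DESeq2 gave no adjusted p for Col6a4 and Col17a1. Depth limits the genes at 0 counts in many libraries, above all Col6a4 and Col10a1.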

Other observations

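Outside the collagen genes, those whose variance-stabilized scores followed Col1a1, Col1a2 and Col3a1 most closely over all libraries were Sparc (mean r = 0.78), a collagen-binding glycoprotein, the N-proteinase Adamts2 (0.69), C1qtnf6 (0.66), Cilp2 (0.66), the proteinase enhancer Pcolce (0.66), Ssc5d (0.65), Fstl1 (0.64), Serpinf1 (0.63), the cross-linking enzyme Loxl2 (0.63) and the tendon gene Tnmd (0.60). Between the sexes these genes did not move alike: Cilp2 differed by -0.54 (adjusted p = 1.35e-19, edgeR) and Adamts2 by 0.14 (adjusted p = 2.67e-08), while Sparc was at 0.04 and did not pass. For Col4a1 and Col4a2 the 5 nearest were the basement membrane proteoglycan Hspg2 (0.59), the annexin Anxa2 (0.57), Igfbp7 (0.57), Sparc (0.56) and Anxa5 (0.55). Hspg2 and Anxa2 were higher in males, by 0.11 (adjusted p = 9.37e-07) and 0.09 (adjusted p = 0.000248). Igfbp7 and Anxa5 were lower, each with a difference of -0.05 (adjusted p = 0.0385 and 0.0205), and Sparc, at 0.04, did not pass. These correlations describe libraries that share depth and processing.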
